A study of Mus musculus with 15 samples.

Results

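A set of 10 genes used as markers of smooth muscle cells and pericytes was followed in RNA from mouse retinal pigment epithelium (RPE), the single sheet of pigmented cells between the photoreceptors and the choroid. They are Acta2, Actg2, Myh11, Mylk, Tagln, Cnn1, Des, Rgs5, Pdgfrb and Cspg4, 10 of the 46078 genes in the deposited count table, and they were chosen by gene symbol as a marker list. All 10 symbols matched 1 row each. The list was chosen with earlier results of these data known.

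RNA was extracted from P14 female mice, postnatal day 14, starting 2 hours after light onset, and poly-A RNA was sequenced. Every library carries the same strain label, which names B6;129-Mertktm1Grl/J, a line with the Mertk knockout allele, mixed with c57Bl/6J. The 4 groups are Mertk WT (4 libraries), Mertk KO (4 libraries, knockout of the phagocytic receptor tyrosine kinase Mertk), Bai1 Tg neg (4 libraries) and Bai1 Tg pos (3 libraries). Both Bai1 groups have wild-type Mertk, and Bai1 Tg pos is labelled positive for a transgene of Bai1, a receptor for phosphatidylserine on dying cells and shed membranes whose gene symbol is now Adgrb1. The sources used here do not name the promoter of the transgene, the number of founder lines or the mice per library. Because no label says that replicates are different mice, a p-value here reflects only how far these libraries lie apart, which may be technical.

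Total counts were 9591129 to 20024507 per library, so that 3 counts, taken as the floor of detection, correspond to 0.15 to 0.313 CPM, counts scaled to a common library size. The library labelled Bai1 Tg neg 4 had 2875 Adgrb1 counts, near the 1708 to 3111 counts of the 3 Bai1 Tg pos libraries, against 0 to 2 in the other Bai1 Tg neg libraries. It went against its label and is named so below, and the fold changes of members, the medians of lists and the calls by edgeR that use it are given with and without it. Mertk itself had 155 to 194 CPM in the Mertk KO libraries and 234 to 259 CPM in the Mertk WT libraries. A count over the whole gene does not check which exons the knockout allele removes. Libraries of the Bai1 groups carry the first tag number 12 in their descriptions and those of the Mertk groups 17 or 21, and the sources used here do not explain these tags.

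Smooth muscle cells line arteries and form the iris sphincter and the ciliary muscle. They contract when calcium and calmodulin activate myosin light chain kinase, the product of Mylk, which phosphorylates the regulatory light chain of smooth muscle myosin, whose heavy chain is encoded by Myh11. The myosin then pulls on filaments of alpha smooth muscle actin (Acta2) or gamma smooth muscle actin (Actg2), and transgelin (Tagln) and calponin 1 (Cnn1) bind those filaments. Pericytes sit on capillaries, including the choriocapillaris that lies against the RPE, and are recognised by the PDGF receptor Pdgfrb, the proteoglycan NG2 (Cspg4), the G protein signalling regulator Rgs5 and the intermediate filament desmin (Des). None of these genes is specific to one cell type: Acta2 in particular is also found in myofibroblasts and in epithelial cells that lose epithelial character.

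Many smooth muscle genes are switched on by serum response factor with its cofactor myocardin through CArG boxes, a 10-base motif of 2 C, 6 A or T bases and 2 G that reads the same on both strands. The 250 bases before the transcription start are shown for Acta2, the most abundant member, for Mylk, an uneven member, and for Myl9, the smooth muscle regulatory light chain, which was high in the 2 libraries with the most Myh11 (below) and was chosen after its values were seen. Capitals mark a CArG box or a CArG-like box, in which 1 of the 6 central bases is not A or T. Sequences are from RefSeq in GRCm38.p6, 5′ to 3′ on the gene's strand.
Acta2, chr19:34255374-34255623, minus strand: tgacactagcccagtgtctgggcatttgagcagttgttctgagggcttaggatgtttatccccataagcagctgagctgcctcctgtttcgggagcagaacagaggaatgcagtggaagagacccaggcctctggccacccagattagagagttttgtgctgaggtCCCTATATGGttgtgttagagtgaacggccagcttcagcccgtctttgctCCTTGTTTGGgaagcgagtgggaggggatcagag
Mylk, chr16:34784700-34784949, plus strand: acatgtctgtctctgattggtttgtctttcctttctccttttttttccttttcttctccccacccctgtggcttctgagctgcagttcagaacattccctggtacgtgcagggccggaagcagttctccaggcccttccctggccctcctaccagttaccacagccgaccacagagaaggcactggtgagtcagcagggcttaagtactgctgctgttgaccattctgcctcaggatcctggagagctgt
Myl9, chr2:156775214-156775463, plus strand: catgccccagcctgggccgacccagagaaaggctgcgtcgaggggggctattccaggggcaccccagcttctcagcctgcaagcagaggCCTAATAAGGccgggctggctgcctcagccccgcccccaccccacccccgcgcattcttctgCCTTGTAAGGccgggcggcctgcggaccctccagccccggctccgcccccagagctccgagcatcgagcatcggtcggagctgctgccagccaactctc
The Acta2 window held 2 CArG-like boxes, starting at -84 and -34 counted from the start site. The Myl9 window held a CArG box at -161 and a CArG-like box at -99, and the Mylk window held neither. The RefSeq start of Mylk lies inside the span of the gene in the deposited table, so the window is one of its promoters at most. Of 32851 RefSeq windows of the same length, 482 (1.47%) held a CArG box and 2823 (8.59%) held a CArG box or a CArG-like box. RefSeq windows for Cnn1, Des, Rgs5 and Cspg4 held no box of either kind; Myh11, Tagln, Actg2 and Pdgfrb had no entry in the table. A match is only a description of the letters.

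Levels fell into 3 classes, drawn after the values were seen. Acta2, Pdgfrb and Cspg4 were present at a steady level in every library. Myh11, Mylk and Tagln were low in most libraries and high in Bai1 Tg pos 1 and Bai1 Tg pos 2. Actg2, Cnn1, Des and Rgs5 were at or near 0 counts in nearly all libraries. The name of the list was thus only partly borne out: Acta2, Pdgfrb and Cspg4 were present also in libraries with few or 0 counts of Rgs5, Des and Cnn1. In whole-tissue RNA, fewer cells of a type and less RNA per cell cannot be told apart. Each gene's position was taken from the deposited counts, and the build is GRCm38.

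**Figure D1:**
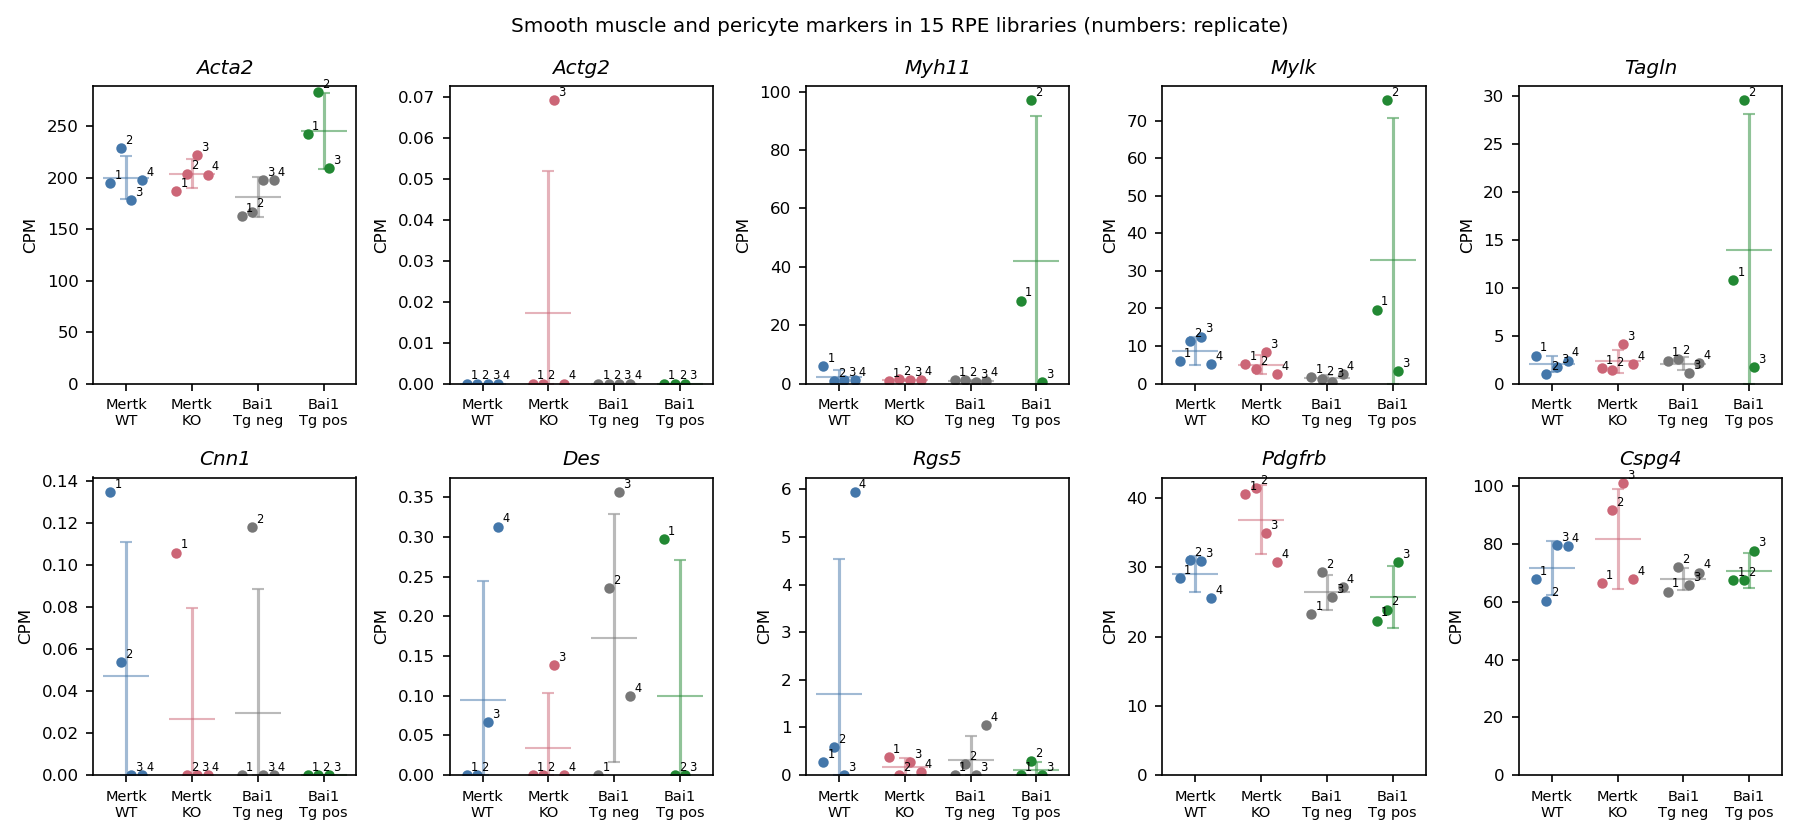
Library-scaled counts (CPM, linear axes from 0, a scale of its own for each gene) of the 10 genes in the 15 libraries. Points are libraries with their replicate number, horizontal lines are group means and bars are 1 SD, drawn no lower than 0. Bai1 Tg pos 1 and 2 stand above all other libraries for Acta2, Myh11, Mylk and Tagln, and Pdgfrb and Cspg4 show no such gap.

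Of the actins, Acta2 (ENSMUSG00000035783, chromosome 19, 34241090 to 34255336, minus strand, 1781 exon bases) was the most abundant member. Its CPM was 195, 229, 178 and 198 in Mertk WT 1 to 4 and 187, 204, 222 and 203 in Mertk KO 1 to 4. It was 163, 167, 198 and 198 in Bai1 Tg neg 1 to 4 and 242, 283 and 209 in Bai1 Tg pos 1 to 3. Every Bai1 Tg pos library was above every Bai1 Tg neg library, but Bai1 Tg pos 3 lay within the range of the Mertk groups, and the highest and lowest of all 15 libraries were 1.74-fold apart. Actg2 (chromosome 6, 83512905 to 83536265, minus strand), the actin of gut and other visceral smooth muscle, had 1 count in all 15 libraries together, in Mertk KO 3.

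Of the motor genes, Myh11 (ENSMUSG00000018830, chromosome 16, 14194527 to 14291408, minus strand, 6632 exon bases) was the most uneven. Its CPM was 28.4 (287 counts) in Bai1 Tg pos 1, 97.1 (1634 counts) in Bai1 Tg pos 2 and 0.376 (7 counts) in Bai1 Tg pos 3. In the 4 Bai1 Tg neg libraries it was 1.09, 1.30, 0.357 and 0.998. It was 5.88, 0.807, 1.27 and 1.25 in Mertk WT 1 to 4 and 0.797, 1.54, 1.18 and 1.36 in Mertk KO 1 to 4. Bai1 Tg pos 1 and 2 were thus far above all other libraries, while Bai1 Tg pos 3 was among the lowest of the 15, so the groups overlapped. Within Bai1 Tg pos the highest library was 258-fold above the lowest.

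Mylk (ENSMUSG00000022836, chromosome 16, 34745210 to 35002420, plus strand, 10159 exon bases) was high in the same 2 libraries, at 19.7 CPM in Bai1 Tg pos 1 and 75.5 CPM in Bai1 Tg pos 2, against 3.22 CPM in Bai1 Tg pos 3. It was lowest in Bai1 Tg neg, at 1.78, 1.24, 0.499 and 2.50 CPM. In the Mertk groups it was mostly between these levels, 5.95, 11.4, 12.5 and 5.22 CPM in Mertk WT 1 to 4 and 5.16, 3.82, 8.37 and 2.48 CPM in Mertk KO 1 to 4. All Mertk WT libraries were above all Bai1 Tg neg libraries. The count sums all exons of the gene, so the kinase and telokin, the short product of its last exons, were not separated. A transcript of Mylk matches one of E130310I04Rik at 99.1% identity over 222 bases and one of Gm21691 at 100% over 190 bases. What these matches do to the Mylk counts was not tested.

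Of the actin-binding genes, Tagln (ENSMUSG00000032085, chromosome 9, 45929628 to 45936058, minus strand, 1586 exon bases) had 10.8 CPM (109 counts) in Bai1 Tg pos 1, 29.6 CPM (498 counts) in Bai1 Tg pos 2 and 1.72 CPM (32 counts) in Bai1 Tg pos 3. The other 12 libraries spanned 1.02 to 4.08 CPM, with the highest in Mertk KO 3. Bai1 Tg pos 3 lay inside that range. The gene shares 65 exon bases, 4.1% of its own, with Pcsk7 on the opposite strand, and counting did not use strand. A transcript of Tagln also matches one of Gm48529 at 100% identity over 647 bases. What that match does to the Tagln counts was not tested. Cnn1 (chromosome 9, 22099281 to 22109630, plus strand) had 7 counts in the 15 libraries together, no more than 2 in any, and 0 in all 3 Bai1 Tg pos libraries, including those with high Myh11.

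Of the pericyte genes, Pdgfrb (ENSMUSG00000024620, chromosome 18, 61045150 to 61085061, plus strand, 5478 exon bases) had 28.4, 31.1, 30.9 and 25.6 CPM in Mertk WT 1 to 4 and 40.6, 41.4, 34.9 and 30.7 CPM in Mertk KO 1 to 4. It had 23.3, 29.3, 25.7 and 27.2 CPM in Bai1 Tg neg 1 to 4 and 22.3, 23.9 and 30.7 CPM in Bai1 Tg pos 1 to 3. Of the Mertk KO libraries, 3 were above all others of the series and Mertk KO 4 lay inside the Mertk WT range. Bai1 Tg pos 1 and 2, the libraries with high Myh11, were among the lowest for this receptor.

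Cspg4 (ENSMUSG00000032911, chromosome 9, 56865104 to 56899870, plus strand, 8050 exon bases) had 67.8, 60.4, 79.6 and 79.2 CPM in Mertk WT 1 to 4 and 66.4, 91.7, 101 and 67.9 CPM in Mertk KO 1 to 4. It had 63.5, 72.1, 65.9 and 70.1 CPM in Bai1 Tg neg 1 to 4 and 67.4, 67.4 and 77.7 CPM in Bai1 Tg pos 1 to 3. The groups overlapped in every pairing, and the 15 libraries spanned 1.67-fold.

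Rgs5 (chromosome 1, 169655501 to 169695813, plus strand, 4546 exon bases) reached 5.95 CPM (57 counts) in Mertk WT 4 and 1.05 CPM (21 counts) in the library labelled Bai1 Tg neg 4. The other 13 libraries had between 0 and 0.592 CPM, and 6 of the 15 had 0 counts. Mertk WT 4 had 1.25 CPM of Myh11, so the library with the most Rgs5 was not one of those with high Myh11. Des (chromosome 1, 75360329 to 75368579, plus strand) had 20 counts in the 15 libraries together and 5 at most in one, and it shares 220 exon bases, 5.9% of its own, with Gm15179 on the opposite strand. Des was therefore at or near the floor in all libraries, and Rgs5 in most, while Pdgfrb had at least 225 counts and Cspg4 at least 680 counts in each library.

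Levels of different genes were compared per length, as RPKM, the CPM divided by the exon length in kilobases. The median RPKM over the 15 libraries was 111 for Acta2, 8.44 for Cspg4, 5.35 for Pdgfrb, 1.35 for Tagln, 0.508 for Mylk, 0.189 for Myh11 and 0.052 for Rgs5, and it was 0 for Actg2, Cnn1 and Des. Only Acta2 was separated from its neighbour in this order, with 91.3 to 159 RPKM against 7.5 to 12.5 RPKM for Cspg4. Pdgfrb, at 4.07 to 7.56 RPKM, overlapped Cspg4 by a small margin, and Tagln, Mylk, Myh11 and Rgs5 overlapped one another. In Bai1 Tg pos 2 the order changed: Tagln stood at 18.7 RPKM and Myh11 at 14.6 RPKM, above every value of Cspg4 in the series.

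**Figure D2:**
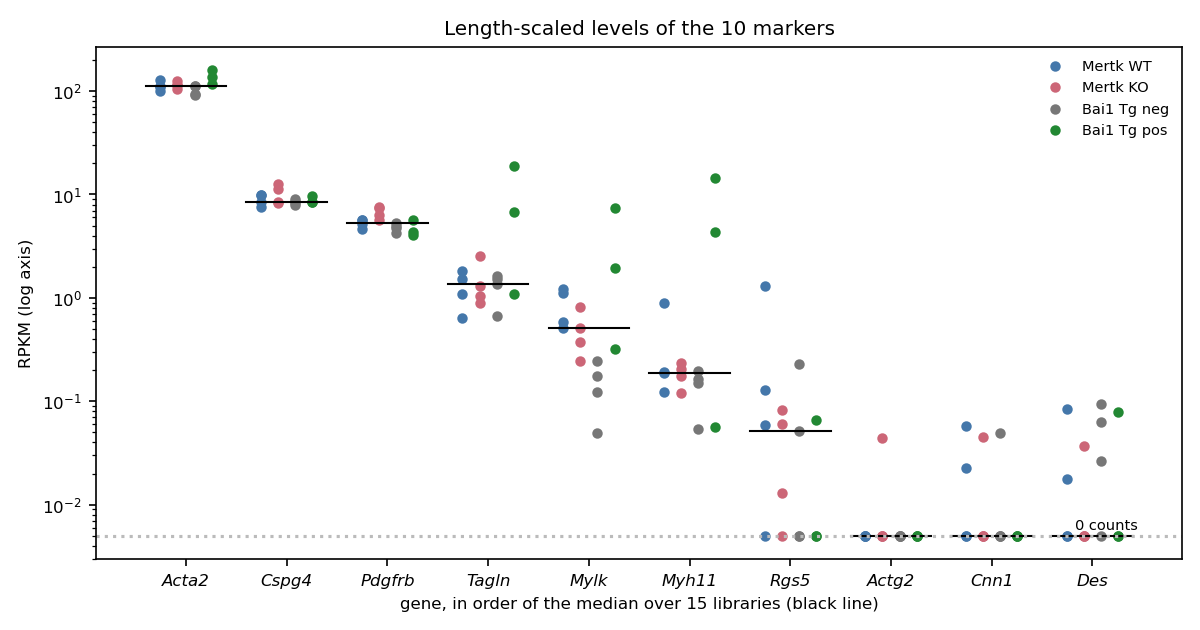
RPKM (log axis) of the 10 genes in each library, coloured by group, with the median over the 15 libraries as a black line and libraries without counts on the dotted line. Acta2 lies above all other genes in every library at 91.3 RPKM or more, and the 2 high Bai1 Tg pos points of Tagln, Mylk and Myh11 stand apart from the rest of their columns.

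The spread between Bai1 Tg pos libraries was set against that of all genes. The SD of log2 CPM over the 3 libraries was 3.97 for Myh11, 2.26 for Mylk and 2.03 for Tagln, where the median of 14520 genes was 0.23. Ranked from the largest SD, Myh11 was number 2, Mylk number 81 and Tagln number 151 of those genes. Acta2 (0.22), Pdgfrb (0.24) and Cspg4 (0.12) were near or below the median. In the other groups Myh11 had an SD of 1.18 in Mertk WT, 0.37 in Mertk KO and 0.70 in Bai1 Tg neg. The unevenness of these genes in Bai1 Tg pos was known when they were chosen, so these values are a description.

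Mertk KO was compared with Mertk WT to ask whether loss of the receptor went with a different level of these genes. Of the 10 members, 6 passed the filter on low counts and were tested; Actg2, Cnn1, Des and Rgs5 did not. By edgeR 0 of the 6 passed an adjusted p of 0.05, against 30 of 13447 genes tested (0.223%), and DESeq2 and limma-voom also called 0. Pdgfrb had the lowest p, at 36.9 ± 5.04 CPM in the knockout and 29 ± 2.58 CPM in the wild type (SD, n = 4 each) and a difference of 0.34 on the log2 scale (SE 0.116, adjusted p = 0.624 by edgeR's quasi-likelihood test with Benjamini-Hochberg adjustment). It was the only member with an unadjusted p under 0.05, a level that 750 genes (5.58%) reached. Among libraries of tag 17 alone its log2 fold change was 0.37 (adjusted p = 0.981, edgeR).

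The contractile genes also missed the threshold between the Mertk groups. Mylk differed by -0.84 on the log2 scale (SE 0.401, adjusted p = 0.893 by edgeR), at 4.96 ± 2.53 CPM in the knockout and 8.74 ± 3.69 CPM in the wild type (SD, n = 4 each). Myh11 had -0.93 (SE 0.584, adjusted p = 0.905 by edgeR); without Mertk WT 1, the library with 87 of the group's 133 counts, the value was 0.14. Acta2 differed by 0.03 (SE 0.0881), Tagln by 0.20 (SE 0.422) and Cspg4 by 0.18 (SE 0.148) on the log2 scale.

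Bai1 Tg pos was compared with Bai1 Tg neg to ask the same of the transgene. By edgeR 0 of the 6 tested members passed, against 2 of 13855 genes (0.0144%). Myh11 stood at 42.0 ± 49.8 CPM in Bai1 Tg pos (SD, n = 3) and 0.935 ± 0.406 CPM in Bai1 Tg neg (SD, n = 4), which gave 5.46 as the log2 fold change (SE 1.65, adjusted p = 0.948 by edgeR). Its SD within Bai1 Tg pos exceeded the mean. Mylk had 32.8 ± 37.9 against 1.5 ± 0.844 CPM, or 4.41 on the log2 scale (SE 1.21, adjusted p = 0.948 by edgeR). Tagln had 14 ± 14.2 against 2.06 ± 0.683 CPM, or 2.76 on the log2 scale (SE 0.93, adjusted p = 0.948 by edgeR).

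Acta2 was at 245 ± 37.0 CPM with the transgene (SD, n = 3) and 181 ± 19.3 CPM without it by label (SD, n = 4), a difference of 0.43 on the log2 scale (SE 0.106, adjusted p = 0.715 by edgeR). For Acta2 and Mylk the groups did not overlap and Bai1 Tg pos was the higher, as for 422 of the 13855 genes tested (3.05%). Pdgfrb (log2 fold change -0.04, SE 0.133) and Cspg4 (0.06, SE 0.0853) differed by less than the SE. Acta2, Myh11, Mylk and Tagln had an unadjusted p under 0.05, as did 718 of all genes (5.18%). The median log2 fold change of the 6 was 1.60, against 0 over all genes tested. The unevenness of the members in Bai1 Tg pos was known when they were chosen. These values and p-values therefore describe the set and are no independent test of the transgene. Without the library labelled Bai1 Tg neg 4 the log2 fold changes were 5.49 for Myh11, 4.81 for Mylk, 2.79 for Tagln and 0.48 for Acta2, with adjusted p of 0.988, 0.988, 0.988 and 0.752 (edgeR). Pdgfrb then had -0.02 and Cspg4 0.08, the median of the 6 was 1.63, and 2 of the 6, Acta2 and Mylk, had an unadjusted p under 0.05.

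These values rested on Bai1 Tg pos 1 and 2. Without both, the fold change on the log2 scale was -1.31 for Myh11 (SE 0.986), -0.27 for Tagln (SE 0.559), 1.07 for Mylk (SE 0.598) and 0.20 for Acta2 (SE 0.111), with the lone Bai1 Tg pos library assumed to vary like the others. Without Bai1 Tg pos 3, Acta2 (log2 fold change 0.54, adjusted p = 0.0311, edgeR) and Tagln (3.30, adjusted p = 0.00523, edgeR) were among 54 genes that passed the threshold. That fit keeps only Bai1 Tg pos 1 and 2, already known to be high in these genes, so passing there is no added support. With DESeq2 in place of edgeR, Acta2, Myh11 and Mylk passed with all 7 libraries, at adjusted p of 0.0458, 0.0387 and 0.0226, and with limma-voom 0 members passed.

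**Figure D3:**
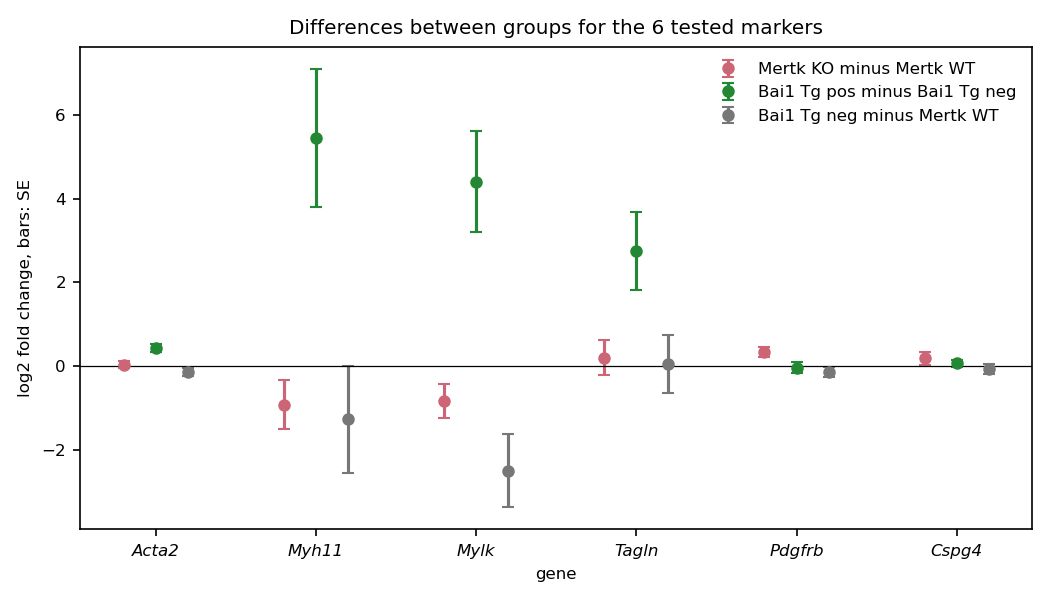
Log2 fold change with its SE for the 6 tested genes in 3 comparisons (edgeR). The Bai1 Tg pos minus Bai1 Tg neg values of Myh11, Mylk and Tagln, 5.46, 4.41 and 2.76, are the highest values and have the widest bars among the Bai1 values, while Acta2, Pdgfrb and Cspg4 lie between -0.14 and 0.43 in all 3 comparisons.

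Bai1 Tg neg was compared with Mertk WT because both have wild-type Mertk and neither is labelled with the transgene; they differ in tag number, so that set and group cannot be told apart. These groups also serve as controls in the comparisons above. By edgeR 0 of the 6 members passed, against 55 of 14520 genes (0.379%), and DESeq2 and limma-voom also called 0. Mylk had 1.5 ± 0.844 CPM in Bai1 Tg neg against 8.74 ± 3.69 CPM (SD, n = 4 each), a difference of -2.51 on the log2 scale (SE 0.87, adjusted p = 0.462 by edgeR). It alone had an unadjusted p under 0.05, as did 1009 genes (6.95%). The groups did not overlap, as for 418 genes (2.88%) in that direction. When only these 8 libraries were fitted, Mylk passed, at -2.52 (SE 0.44, adjusted p = 0.0429, edgeR), and without the library labelled Bai1 Tg neg 4 it had -2.92 (adjusted p = 0.588, edgeR). The level of Mylk in Bai1 Tg neg was the lowest of any group, and it enters the Bai1 Tg pos difference above as the reference.

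The Bai1 Tg pos effect minus the Mertk KO effect was tested in 1 model over the 15 libraries. The unevenness in Bai1 Tg pos was known when the members were chosen, so their values are a description here too. By edgeR and by limma-voom 0 members passed, against 15 of 14520 genes by edgeR (0.103%). All tested members but Cspg4 had an unadjusted p under 0.05, as did 1093 genes (7.53%). The difference on the log2 scale was below 0 for Pdgfrb, at -0.38 (SE 0.18, adjusted p = 0.654, edgeR). It was 2.56 for Tagln (SE 0.972, adjusted p = 0.541, edgeR), 5.25 for Mylk (SE 1.19, adjusted p = 0.198, edgeR), 6.39 for Myh11 (SE 1.74, adjusted p = 0.326, edgeR) and 0.41 for Acta2 (SE 0.143, adjusted p = 0.454, edgeR). Myh11 and Mylk passed with DESeq2, at adjusted p of 0.00744 and 0.00168, and without Bai1 Tg pos 3, at 0.019 and 0.0219 with edgeR. The fit without Bai1 Tg pos 3 again keeps only the Bai1 Tg pos libraries known to be high in these genes. Without the library labelled Bai1 Tg neg 4 the values were 5.65 for Mylk, 6.43 for Myh11, 2.59 for Tagln, 0.45 for Acta2 and -0.37 for Pdgfrb.

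Genes of the contractile apparatus outside the 10 were read for the same 2 libraries. Of 24 such genes, 18 were tested between the Bai1 groups and 0 passed by edgeR or DESeq2, against 2 of 13855 genes by edgeR (0.0144%). An unadjusted p under 0.05 by edgeR was reached by 4 of the 18, against 5.18% of all genes. Without the library labelled Bai1 Tg neg 4 it was reached by 2 of the 18. The median log2 fold change was 0.05 (0.08 without the library labelled Bai1 Tg neg 4). The most abundant, Cnn3 (684 to 830 CPM) and Cald1 (304 to 422 CPM), are also made outside muscle. Between the Bai1 groups 12 of the 18 had log2 fold changes above 0, with and without the library labelled Bai1 Tg neg 4. The lowest were -0.75 for Pgm5, -0.73 for Nexn and -0.63 for Synpo2, named after their values were seen. A further 4 genes of this list were above the other 13 libraries in both Bai1 Tg pos 1 and 2, and are named for that reason after their values were seen. Myl9, the regulatory light chain that the Mylk product phosphorylates, had 8.12 and 37.6 CPM in these 2 libraries and 0.376 in Bai1 Tg pos 3, against 0.067 to 2.30 CPM elsewhere. For the difference of the effects Myl9 had 6.83 on the log2 scale (SE 1.65, adjusted p = 0.25, edgeR). That value was 6.99 without the library labelled Bai1 Tg neg 4. By DESeq2 Myl9 passed with all 15 libraries. Between the Bai1 groups alone Myl9 differed by only 4.08 on the log2 scale (4.24 without the library labelled Bai1 Tg neg 4). It was not tested between the Mertk groups, where Mertk KO 1 to 4 had 2, 1, 1 and 7 counts. The difference of the effects for Myl9 therefore also rests on knockout counts that lie mostly under the floor of 3. Tpm2, beta-tropomyosin, had 1.78 and 8.02 CPM against 0.266 to 1.76 CPM. Smtn (smoothelin) had 72.4 and 81.6 CPM against 38.0 to 68.9 CPM, and Tpm1 (alpha-tropomyosin) had 63.2 and 60.3 CPM against 39.9 to 58.4 CPM.

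Of the 10 members, Acta2, Myh11, Mylk and Tagln had that pattern. Across all 14520 genes tested, 500 (3.44%) were above the other 13 libraries in both, and 18 (0.124%) were above more than 2 times the highest of the 13, with Myh11, Tagln and Myl9 among the 18. Other markers of contractile muscle were low: Kcnmb1, Itga8, Mustn1, Aoc3 and Casq2 stayed under 1 CPM in all 15 libraries.

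Likeness across the 15 libraries was given by Pearson's r of log2 CPM, as a description over points that share their libraries. Myh11 had r = 0.92 with Tagln, 0.76 with Mylk and 0.66 with Acta2. It had -0.45 with Pdgfrb and -0.16 with Cspg4. Without Bai1 Tg pos 1 and 2, which are also the libraries farthest from the median of Myh11, r was 0.53 with Tagln, 0.35 with Mylk and -0.15 with Acta2. The likeness of Myh11 to the other contractile genes therefore rested largely on 2 libraries.

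Outside the members, the 6 genes most like Myh11 were Wdfy1 (r = 0.89), the tropomyosin Tpm2 (0.88), the adhesion molecule Clmp (0.88), the metalloprotease Adamts16 (0.88), the Wnt inhibitor Nkd2 (0.87) and the microfibril protein Mfap4 (0.87). Without the same 2 libraries, over 13, these values were 0.17, 0.66, 0.38, 0.43, 0.36 and 0.57. Wdfy1 had 35.1 and 39.9 CPM in Bai1 Tg pos 1 and 2 and 10 to 15.5 CPM in the other 13 libraries. The 6 genes most like Acta2 were Atp1b3 (r = 0.80), a beta subunit of the sodium pump, Slc16a6 (0.78), a member of the monocarboxylate transporter family, Mpp6 (0.76), Nbl1 (0.76), a BMP antagonist, the Slit receptor Robo1 (0.74) and Gm13835 (0.74). Over the 13 libraries they had 0.49, 0.64, 0.47, 0.32, 0.31 and 0.61.

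Genes that control and accompany mural cells were read in the same way. Of 12 genes of smooth muscle transcriptional control, 6 were tested in each comparison and 0 passed by edgeR, DESeq2 or limma-voom; Tead1 (132 to 173 CPM) and Srf (37.8 to 97.0 CPM), the CArG-binding factor, were the most abundant, and Myocd, its muscle cofactor, had 0 counts in all 15 libraries, which allows up to 0.313 CPM in the shallowest. Of 16 further pericyte genes, 9 were tested. Between the Mertk groups 5 of these 9 had an unadjusted p under 0.05 by edgeR, against 5.58% of all genes, and 0 passed the adjusted threshold. Their directions were mixed, and they are named after their values were seen. Kcnj8 (log2 fold change 0.62) and Pdgfa (0.39) were higher in the knockout, and Cox4i2 (-1.09), Notch3 (-0.54) and Vtn (-0.46) were lower. Gucy1a1, a subunit of the nitric oxide receptor, had 83.4 to 136 CPM, and the list's sum was 277, 224 and 236 CPM in Bai1 Tg pos 1 to 3 and 232 to 253 CPM in Mertk WT, Mertk KO and Bai1 Tg neg. Gucy1a1, Vtn and Pdgfa, a ligand gene also counted in the PDGF pathway below, made up most of this sum. Higd1b, Ndufa4l2, Foxs1, Rgs4 and Pdgfb were under 1 CPM in all 15 libraries. By edgeR 1 gene of this list passed in 1 comparison: Vtn, which encodes the matrix protein vitronectin, had 32.5 ± 2.90 CPM in Bai1 Tg neg and 59.6 ± 9.06 CPM in Mertk WT (SD, n = 4 each), and fell by 0.88 on the log2 scale (SE 0.111, adjusted p = 0.00226, edgeR). Without the library labelled Bai1 Tg neg 4 it fell by 0.92 (adjusted p = 0.01, edgeR). By DESeq2 Vtn also passed for the difference of the effects, where edgeR gave 0.72 on the log2 scale (adjusted p = 0.117).

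Of the 6 genes of the PDGF pathway, which holds 4 ligands, the receptor Pdgfra and the member Pdgfrb itself, 4 were tested and 0 passed in any comparison by edgeR, DESeq2 or limma-voom. Pdgfa (46.6 to 89.1 CPM) and Pdgfc (43.7 to 69.0 CPM) were the most abundant. Pdgfb, the ligand that recruits pericytes, was under 1 CPM in all 15 libraries. In Mertk KO against Mertk WT the 4 tested genes, Pdgfrb among them, had log2 fold changes above 0; the median was 0.25, and 0.16 over the 3 other than Pdgfrb.

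Markers of the other cells that could be in the samples were summed in each library. RPE genes, led by Ttr (20700 to 26500 CPM) and Rgr (11000 to 14600 CPM), summed to 55700 to 64800 CPM, with 57000 in Bai1 Tg pos 2. The 12 rod photoreceptor genes used, led by Gnat1 and Rom1, summed to 329, 543 and 239 CPM in Bai1 Tg pos 1 to 3 and 190 to 365 CPM in Bai1 Tg neg. They summed to 632 to 2260 CPM in Mertk WT and 672 to 1100 CPM in Mertk KO. The rod sum was thus higher in Bai1 Tg pos 2 than in the other Bai1 libraries and lower there than in any Mertk library. All 12 rod genes used had positive log2 fold changes between the Bai1 groups (median 1.07); 0 passed by edgeR and 1, Pde6b, by DESeq2. Without the library labelled Bai1 Tg neg 4 the median was 0.86. Between Bai1 Tg neg and Mertk WT, 3 of 12 were called lower by edgeR (12 by DESeq2): Pde6b (log2 fold change -4.16, adjusted p = 0.024), Nr2e3 (-3.87, 0.0289) and Rom1 (-0.53, 0.0333). Without the library labelled Bai1 Tg neg 4, edgeR called 0 of the 12; these 3 genes had -4.06, -3.68 and -0.51, with adjusted p of 0.106, 0.111 and 0.125, and all 12 had an unadjusted p under 0.05. The part of rod RNA in the members' values was not tested.

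Vessel and stroma markers were summed in the same way. The 12 endothelial genes, led by Ramp2 (92.4 to 196 CPM) and Kdr (4.6 to 12.2 CPM), summed to 140, 178 and 161 CPM in Bai1 Tg pos 1 to 3, 139 to 167 CPM in Bai1 Tg neg, 133 to 223 CPM in Mertk WT and 106 to 174 CPM in Mertk KO. Bai1 Tg pos 2 thus had the highest sum of the 7 Bai1 libraries, and Bai1 Tg pos 1 was near the lowest of them. Ramp2 made up most of the sum, with 161 CPM in Bai1 Tg pos 2, and Cdh5, Tie1, Tek, Esam and Cldn5 were under 1 CPM in all 15 libraries. The 5 endothelial genes tested between the Bai1 groups went both ways, with a median log2 fold change of 0.02. Kdr (0.35), Ramp2 (0.07) and Flt1 (0.02) were above 0, and Egfl7 (-0.40) and Plvap (-1.34) were below. In the fit that leaves out Bai1 Tg neg 4, 2 of 4 were above 0 (median 0.05). The 11 genes of fibroblasts and choroid stroma summed to 17.7, 45.9 and 11.8 CPM in Bai1 Tg pos 1 to 3. This sum was highest in Mertk WT 4 (65.2 CPM) and Mertk KO 3 (60.5 CPM) and was 10.3 to 19.7 CPM in the remaining 10 libraries. Mertk WT 4 is the library with the most Rgs5, and Mertk KO 3 is the one with the most Tagln outside Bai1 Tg pos. Fbln1, the most abundant gene of this list, had 10.2 and 25.4 CPM in Bai1 Tg pos 1 and 2 and 1.99 to 6.99 CPM elsewhere. It was thus high in the same 2 libraries as Myh11, and was 25.4 of the 45.9 CPM in Bai1 Tg pos 2. Col1a2, the next, had 1.29 to 17.2 CPM over the 15 libraries. It was lower in Bai1 Tg pos, at a mean of 2.45 against 4.21 CPM in Bai1 Tg neg (log2 fold change -0.76). Of 5 genes of this list tested between the Bai1 groups, 3 had log2 fold changes above 0 (median 0.19). Without the library labelled Bai1 Tg neg 4 these were 4 of 5, with a median of 0.28. Whether these cells or RNAs had a part in the members' values was not tested.

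**Figure D4:**
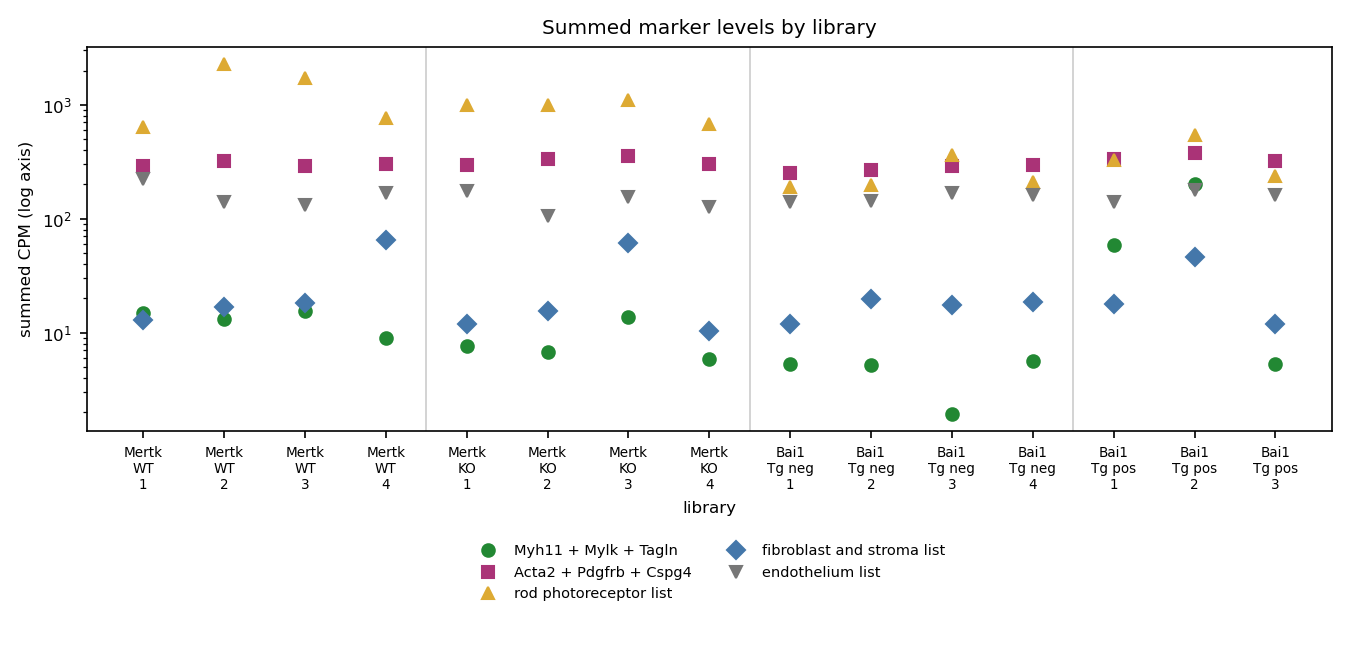
Summed CPM (log axis) in each library of 2 sets of members and 3 lists of other cell types. The sum of Myh11, Mylk and Tagln is 58.9 and 202 in Bai1 Tg pos 1 and 2 and at most 15.5 in the other 13 libraries, while the sum of Acta2, Pdgfrb and Cspg4 stays between 250 and 375.

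Genes of the front of the eye gave no single pattern. Of 8 receptors of iris and ciliary muscle, led by Chrm3 (11.4 to 18.5 CPM) and Adra1b (1.7 to 8.82 CPM), the sum was 22.5, 26.4 and 24.3 CPM in Bai1 Tg pos 1 to 3 and 19.6 to 23.5 CPM in Bai1 Tg neg. It was 23.9 to 27.3 CPM in Mertk WT and 18.9 to 22.7 CPM in Mertk KO, so the Mertk groups did not overlap. Of the 4 receptors tested between the Mertk groups, 0 had a log2 fold change above 0 (median -0.65). The muscarinic and adrenergic receptors named are also made in other cells. The 7 genes of iris and ciliary epithelium, led by Col9a1 and Otx1, summed to 37.2, 48.5 and 43.6 CPM in Bai1 Tg pos 1 to 3, 42.4 to 47.2 CPM in Bai1 Tg neg, 24.9 to 42.3 CPM in Mertk WT and 35.5 to 46 CPM in Mertk KO, so that Bai1 Tg pos 2 was the highest of the 15 libraries and Bai1 Tg pos 1 was not. By edgeR neither list had a gene past the threshold in any comparison; by DESeq2 Adra1b passed for the difference of the effects. Zic1, a transcription factor on the epithelial list that is named after its values were seen, had 7 counts in Bai1 Tg pos 1, 128 counts (7.61 CPM of the list's 48.5) in Bai1 Tg pos 2 and at most 1 count in any other library. Zic2, of the same list, had a mean of 0.667 CPM in Bai1 Tg pos and 0 CPM in Bai1 Tg neg. Neither Zic1 nor Zic2 was tested between the Bai1 groups. Of the 3 epithelial genes that were, 0 had a log2 fold change above 0 (median -0.29, and -0.36 without the library labelled Bai1 Tg neg 4). Wfdc1 had the lowest, -1.61, with means of 0.452 CPM in Bai1 Tg pos and 1.47 CPM in Bai1 Tg neg. Zic2 and Wfdc1 are also named after their values were seen. The part of these cells in the members' values was not tested.

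Striated muscle, from the muscles that move the eye, was scarce. Ckm, Myh2, Myh4 and Actc1 had 0 counts in all 15 libraries, 14 of the 16 genes were under 1 CPM throughout, and Ttn and Mylpf (0 to 1.67 CPM) led. Of 8 genes of melanocytes and Schwann cells, Sox10 (185 to 334 CPM) and Mlana (108 to 159 CPM) led. Their list summed to 378, 393 and 459 CPM in Bai1 Tg pos 1 to 3 and 407 to 444 CPM in Bai1 Tg neg. It summed to 341 to 510 CPM in Mertk WT and 441 to 511 CPM in Mertk KO. Non-muscle actomyosin, led by Actb (658 to 1120 CPM) and Actg1 (513 to 693 CPM), summed to 3110 and 2900 CPM in Bai1 Tg pos 1 and 2 and 2580 to 3160 CPM in the other libraries. Genes of epithelial to mesenchymal change, led by Ccn1 (774 to 2630 CPM) and Vim (139 to 288 CPM), summed to 3130 and 2150 CPM in Bai1 Tg pos 1 and 2 and 1140 to 2770 CPM elsewhere, and Snai1, Snai2 and Twist1 were under 1 CPM in all 15. By edgeR 0 genes of these 4 lists and of the RPE list passed in the comparisons; Actb passed by limma-voom between Bai1 Tg neg and Mertk WT. Over the 14 lists, members left out, an unadjusted p under 0.05 by edgeR was reached by 15 of 103 genes tested between the Mertk groups (14.6%, against 5.58% of all genes) and by 12 of 104 between the Bai1 groups (11.5%, against 5.18%). It was reached by 21 of 110 between Bai1 Tg neg and Mertk WT (19.1%, against 6.95%), 12 of them rod genes, and by 20 of 110 for the difference of the effects (18.2%, against 7.53%).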

How the data were processed

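Poly-A RNA of 15 mouse RPE libraries was measured. The authors deposited 1 table of raw counts per gene: STAR aligned the reads to GRCm38 per the submitters' processing notes, and per the file headers fragments were counted over exons with featureCounts 1.5.0, both ends mapped and no strand option. The sources used here give no STAR version or annotation release.

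From the deposited counts, CPM and RPKM were computed with TMM factors over 15 libraries, and log2 CPM with a prior count of 2. Groups were compared with edgeR 4.0.16 (R 4.3.3; filterByExpr, robust quasi-likelihood F test, two-sided, Benjamini-Hochberg, threshold 0.05), the Mertk and Bai1 comparisons on their own libraries and the other comparisons on all 15. DESeq2 1.42.0, limma-voom (limma 3.58.1), other scaling, no low-count filter, a replicate block and libraries left out were alternatives. Scripts were tested on simulated data. Exon overlaps came from the deposited coordinates. Matches between transcripts came from a blastn 2.17.0 search of GENCODE transcripts, with at least 150 aligned bases and 95% identity. No pair of libraries in a group agreed within sampling noise. Intervals were not needed; the floor of 3 counts covers counting error only, since PCR fragments without identifiers are not independent molecules.

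The members, the 14 other lists and the tests were chosen with earlier results of these data known. A gene of the rod list is not reported here and is left out of that list's sums, counts and medians. Genes named are the 10 members, of each other list up to 3 past the threshold or else its 2 most abundant and defining markers at 0, and the 6 genes most like each of Acta2 and Myh11; others are said to be chosen after their values were seen.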

Additional observations from a re-analysis of the deposited data

Results flagged for a closer look

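In 6 cases a value stood apart from the other 3 libraries of its group by the gap of the highest library, among 28 sets of 4 libraries checked. Chance gives about 1 in 20 for values that vary continuously. That rate does not hold where the other 3 libraries have 0 counts, since any read then meets the rule. This was so in 4 of the 6 cases. Myh11 had 5.88 CPM (87 counts) in Mertk WT 1, where the other Mertk WT libraries had 0.807 to 1.27 CPM. In Mertk WT 4 Rgs5 had 5.95 CPM (57 counts), and its group had 0 to 0.592 CPM otherwise. The remaining 4 rest on 1 or 2 counts and lie under the floor of 3 counts: Actg2 (0.0692 CPM) and Des (0.138 CPM) in Mertk KO 3, and Cnn1 in Mertk KO 1 (0.106 CPM) and in Bai1 Tg neg 2 (0.118 CPM). The 3 Bai1 Tg pos libraries are too few for this check.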

How the results depend on the processing

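Of 366 alternative values of the 6 tested members, 339 kept their direction and side of the threshold, 11 newly passed it and 16 changed sign. Genes called between Mertk KO and WT numbered 30, against 75 with DESeq2, 69 with no low-count filter, 14 in tag 17 alone and 16 to 31 with a library left out, the lowest without Mertk KO 4. Between Bai1 Tg pos and neg they numbered 2, against 26 with DESeq2, 85 with no filter, 0 with limma-voom (718 at an unadjusted p under 0.05), 0 with all 15 libraries in 1 fit (814), 15 without Bai1 Tg pos 1 and 2 (added after seeing the data) and 0 to 54 with a library left out, the highest without Bai1 Tg pos 3; leaving out any Bai1 library but Bai1 Tg neg 2 moved the count by over 1.5 times. Members called there numbered 3 with DESeq2, 1 with no filter (Acta2) and 0 to 2 with a library left out. Between Bai1 Tg neg and Mertk WT the 55 became 179 with DESeq2, 93 with limma-voom and 2 to 96 with a library left out, the lowest without Bai1 Tg neg 1 or 2 and the highest without Mertk WT 1 (12 without Mertk WT 2, 6 without Mertk WT 3 and 15 without Bai1 Tg neg 4), and 1 member (Mylk) was called when only the 8 libraries were fitted. For the difference of effects the 15 became 78 with DESeq2, 37 with no filter and 12 to 31 with a library left out (26 without Mertk WT 1 and 31 without Bai1 Tg pos 3), and members called 2 with DESeq2 and 0 to 2. The cause was not tested.

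With a library left out, log2 fold changes that changed sign spanned -1.22 to 0.14 for Myh11, -0.22 to 0.44 for Tagln and -0.02 to 0.10 for Acta2 between the Mertk groups, -0.19 to 0.05 for Pdgfrb and -0.01 to 0.09 for Cspg4 between the Bai1 groups, and -0.19 to 0.30 for Tagln between Bai1 Tg neg and Mertk WT. Without Bai1 Tg pos 1 and 2, Myh11 had -1.31, Tagln -0.27 and Pdgfrb 0.21. The log2 range within Bai1 Tg pos spanned 0.21 to 0.44 for Acta2, 1.77 to 7.59 for Myh11, 1.93 to 4.50 for Mylk, 1.44 to 4.01 for Tagln, 0.10 to 0.46 for Pdgfrb and 0.00 to 0.21 for Cspg4, the lowest for Acta2 without Bai1 Tg pos 2 and for the others without Bai1 Tg pos 3. Myh11's r was 0.35 to 0.72 with Acta2, 0.56 to 0.81 with Mylk and 0.83 to 0.95 with Tagln with a library left out; without Bai1 Tg pos 1 and 2 it was -0.15, 0.35 and 0.53, and 0.42 with Acta2 as deviations from group means.

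Replicate numbers did not pair the libraries: same-numbered ones had r of deviations of -0.114 to 0.236 in the Mertk groups and -0.004 to 0.015 in the Bai1 groups, and not every library had its highest r with its own number. With the replicate block 24 genes were called between the Mertk groups and 11 between the Bai1 groups, and 0 members in both. Depth limits Actg2, Cnn1, Des and Rgs5, which had too few counts to test.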
